A study of Mus musculus with 12 samples.

Results

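Dicer1-null mouse stromal cells given a synthetic let-7g duplex or a non-targeting siRNA were compared, to read the messenger RNA response to a single added microRNA in cells that lack the enzyme for making their own. The comparison rests on 6 of the 12 libraries of the series: KO_let-7g replicates 0, 1 and 2 against KO_siCtrl replicates 0, 1 and 2. The unit is FPKM, a fragment count scaled to transcript length and to the mapped fragments of the library. Described here are all genes that reached 1 FPKM in at least 3 of the 12 libraries, which were 11801 of the 21881 genes in the table, whether or not they responded. The cells were clonal, immortalized lines of mesenchymal stem cells, the fibroblast-like stromal cells of adult bone marrow that can form bone, fat and cartilage, from C57BL/6 mice. KO_siCtrl, KO_let-7g and KO_siNr6a1 (given an siRNA against the nuclear receptor gene Nr6a1) were Dicer -/-, so the cells that served as control for let-7g lacked Dicer as well. WT_siCtrl was Dicer f/f, labelled wild type, and was given the same non-targeting siRNA. Each group had 3 libraries, and each duplex was given at 20 nM for 48 hours. Neither the number of clonal lines nor whether replicates were separate cultures is stated in the sources used here. The p-values therefore cover the spread among these libraries, which may be technical, and line and genotype cannot be told apart in comparisons with WT_siCtrl.

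Dicer cuts microRNA hairpins into short duplexes, a strand of which is held by an Argonaute protein and guides it to messenger RNAs, mostly through pairing of the seed, bases 2 to 8 of the microRNA, with sites in the 3′ UTR. A ready-made duplex enters Argonaute without Dicer, so its targets can be read in Dicer-null cells. The let-7 family is scarce in embryonic and many tumour cells, builds up as cells differentiate, and is best known for repressing genes of growth and fetal life such as Hmga2, the Igf2bp genes and the Ras genes.

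The sequence of the transfected duplex is not stated in the sources used here. The mature mouse let-7g of RefSeq (GRCm38.p6, chr9:106178846-106178867, plus strand) is shown in its place, with its seed in capitals, beside family members that differ from it outside the seed and let-7j, whose last seed base differs.
mmu-let-7g-5p: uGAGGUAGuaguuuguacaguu
mmu-let-7a-5p: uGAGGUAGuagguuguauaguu
mmu-let-7i-5p: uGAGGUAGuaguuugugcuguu
mmu-miR-98-5p: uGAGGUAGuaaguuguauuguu
mmu-let-7j: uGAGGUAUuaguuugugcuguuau
In RefSeq, let-7a, b, c, d, e, f, i and k and miR-98 carry the same seed as let-7g. The messenger RNA letters that pair with it are CTACCTC (a 7mer-m8 site), CTACCTCA (an 8mer, the same with a following A), TACCTCA (a 7mer-A1) and TACCTC (a 6mer), searched on the sense strand of annotated transcripts (GENCODE M21, GRCm38). A 7mer or 8mer also holds the 6mer, so each gene was placed in the class of its best site.

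The following 24-base stretches end in an 8mer, in capitals, and belong to genes on which the results below turn. The 3 sites in the 3′ UTR of Nr6a1 start at bases 371, 1228 and 4135 of a 4457-base UTR (chr2:38727449-38727456, chr2:38726592-38726599 and chr2:38723685-38723692, minus strand). Single 8mers lie in the 3′ UTRs of Hmga2 at base 58 (chr10:120364224-120364231, minus strand), Hic2 at base 3717 (chr16:17262885-17262892, plus strand) and Eif2c2 at base 8919 (chr15:73097982-73097989, minus strand). Arid3a has an 8mer in the 3′ UTR at base 1974 (chr10:79953910-79953917, plus strand) and another in the coding sequence at base 1781 (chr10:79951911-79951918). Dicer1 has no 8mer in its 3′ UTR but 3 in its coding sequence, at bases 3611, 3719 and 5091 (chr12:104702804-104702811, chr12:104702696-104702703 and chr12:104694696-104694703, minus strand).
Nr6a1 site at 371: atgttgacaaagacaaCTACCTCA
Nr6a1 site at 1228: ggaaaggggcattaaaCTACCTCA
Nr6a1 site at 4135: caagtgcatcatgaacCTACCTCA
Hmga2 site at 58: cgccgacattcaatttCTACCTCA
Hic2 site at 3717: accagggacccctcccCTACCTCA
Eif2c2 site at 8919: cttttacaatgtggatCTACCTCA
Arid3a 3′ UTR site at 1974: caaggcaagtttctttCTACCTCA
Arid3a coding site at 1781: acacccaccatgtcttCTACCTCA
Dicer1 coding site at 3611: atacctgtacaaccaaCTACCTCA
Dicer1 coding site at 3719: gggaacgctaacacatCTACCTCA
Dicer1 coding site at 5091: gagatgcgattttggaCTACCTCA
All end in the same 8 letters, while the 16 bases before them differ from site to site.

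Before the results, the labels and the libraries were checked. Dicer1 messenger RNA was read at 3.90, 3.63 and 4.06 FPKM in KO_siCtrl and at 8.24, 5.58 and 5.93 FPKM in WT_siCtrl. The sources used here do not say which exons are deleted, and the rest of a transcript can remain, so these levels check the genotype only in part. Nr6a1, the target of the siRNA of the KO_siNr6a1 group, stood at 12.6, 12.3 and 10.22 FPKM in KO_siCtrl and at 3.43, 4.30 and 3.31 FPKM in KO_siNr6a1. Relative sequencing depth, read from the smallest steps between low values, was 1 to 1.308 in KO_siCtrl and 1.343 to 1.821 in KO_let-7g, so the let-7g libraries were the deeper ones; the part of depth in the results was not tested. No pair among the 12 libraries held identical values. Of 17 mesenchymal stem cell markers in the table, 14 had a mean of at least 1 FPKM in both groups (summed level 2400 to 2552 FPKM in KO_siCtrl and 2630 to 2832 FPKM in KO_let-7g), while Thy1, a defining surface marker, was listed at 0 in KO_siCtrl, WT_siCtrl and KO_siNr6a1 and read at no more than 0.005416 FPKM in any KO_let-7g library. In bulk RNA, fewer cells of a type and less RNA per cell cannot be told apart. Markers of other cells were low: 13 blood cell markers summed to 42.5 to 50.5 FPKM and 34.5 to 43.9 FPKM, 9 endothelial markers to 0.178 to 0.337 FPKM and 0.340 to 0.434 FPKM, and 9 epithelial markers to 1.82 to 3.24 FPKM and 0.757 to 1.34 FPKM, in KO_siCtrl and KO_let-7g respectively. The 9 neural markers summed to more with let-7g, without overlap, at 10.35 to 13.4 FPKM in KO_siCtrl and 17.96 to 21.5 FPKM in KO_let-7g. Of the 2 that could be tested, which were both called higher with the replicate block, the neuronal tubulin gene Tubb3 was called without it, from 2.44, 1.64 and 1.88 FPKM to 8.13, 5.58 and 7.64 FPKM (1.44 ± 0.15, adjusted p = 2.4e-05), and the part of these markers in the results was not tested. Smooth muscle contractile genes, high in WT_siCtrl (3302 to 3900 FPKM summed), were at 862 to 910.1 FPKM in KO_siCtrl and at 801 to 827 FPKM in KO_let-7g.

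All differences below are of log2(FPKM + 1), KO_let-7g minus KO_siCtrl unless another group is named, given ± SE with 3 libraries per group; on this scale the change of low genes is understated. Genes with an adjusted p under 0.05 were called (limma, Benjamini-Hochberg over all 11801 genes). Where a gene is said to rise or fall with no p beside it, it was called. Library values are listed in the order replicate 0, 1, 2. With let-7g, 3241 genes were called higher (27.5%) and 2142 lower (18.2%), against which every count of a gene group below is to be read. By at least 1 on the log2 scale, 453 genes were higher (3.84%) and 310 lower (2.63%). Of the called genes 60.2% were higher, a share that was 49.9% after quantile scaling and 49.3% after scaling by the median of ratios. The median of all genes stood at 0.076 with the values as deposited. Against KO_siNr6a1, whose cells also had less Nr6a1 but were given no let-7g, 27.6% of genes were called higher and 13.3% lower in KO_let-7g; this comparison shares the let-7g libraries with the main one, and its values are given beside it.

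Genes with let-7 sites in the 3′ UTR were called lower more often than others, in the order of the strength of the site. Among 11224 tested genes with an annotated 3′ UTR, 42.7% of the 417 with an 8mer were called lower, against 36.1% of 747 with a 7mer-m8, 33.9% of 720 with a 7mer-A1, 21.3% of 1077 with a 6mer and 14.4% of 8263 with none. Median differences followed the same order, from -0.248 for 8mers through -0.154, -0.118 and 0.041 to 0.121 for genes with no site. More sites went with larger falls. Of 22 genes with 3 or more 7mer-m8 or 8mer sites, 15 were called lower (68.2%), with a median difference of -1.249. The values were 44.8% and -0.269 for 125 genes with 2 such sites and 37.1% and -0.171 for 1017 with 1 site. In each let-7g library by itself the 8mer genes' median lay below the KO_siCtrl mean, at -0.228, -0.240 and -0.282. The classes also differ in length, since the median 3′ UTR was 2636 bases for 8mer genes and 891 bases for genes with no site. It was 2181, 3518 and 4678 bases for genes with 1, 2 and 3 or more 7mer-m8 or 8mer sites. Taking each gene's shortest annotated 3′ UTR instead of the longest left 232 genes with an 8mer, 112 of them called lower (48.3%).

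**Figure D1:**
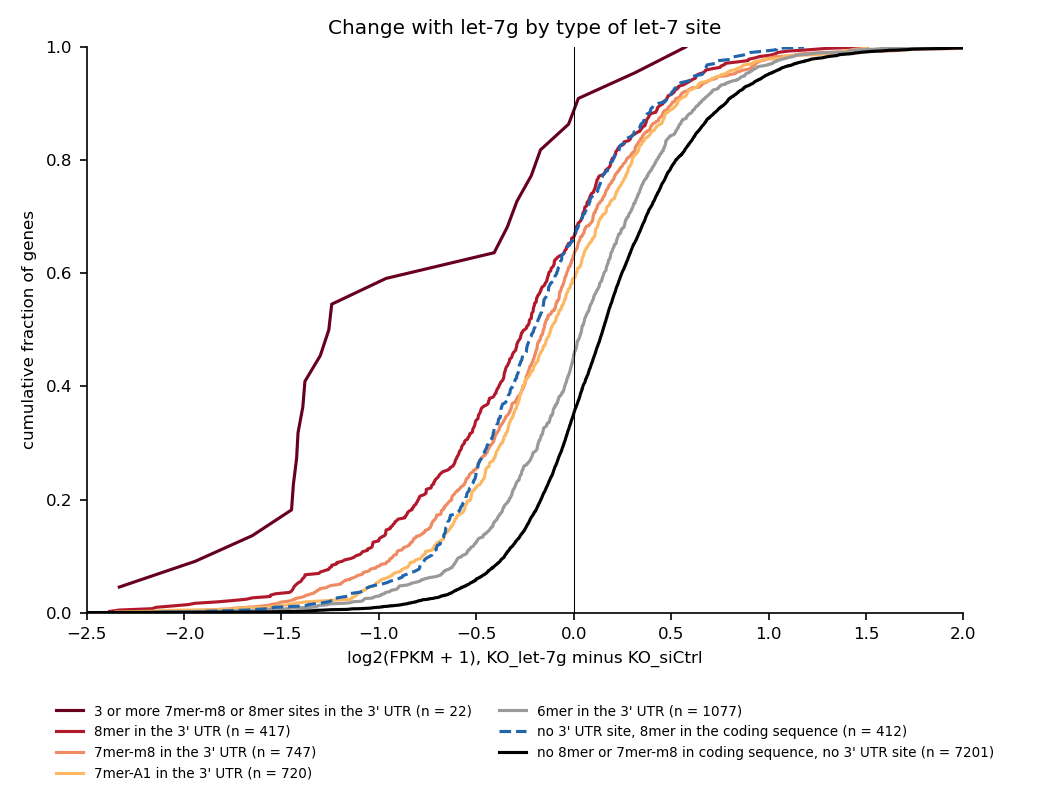
Cumulative fraction of genes (vertical axis) against the log2 difference of KO_let-7g minus KO_siCtrl (horizontal axis), by the best let-7 site of the gene; n is the number of genes in each class. The curve of the 22 genes with 3 or more sites lies farthest to the left over most of its range, and the others lie between it and the curve of the 7201 genes with neither kind of site. The dashed curve is that of 412 genes with an 8mer only in the coding sequence.

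Sites in coding sequence went with lower levels as well. Of 412 genes with no 3′ UTR site but a coding 8mer, 163 were called lower (39.6%, median difference -0.204), and of 650 with a coding 7mer-m8 200 were (30.8%, median -0.110), against 11.5% of the 7201 genes with neither (median 0.150). The median 3′ UTRs of the 2 classes with coding sites were 1031 and 985 bases, against 874 bases for the 7201 genes. The length of the coding sequence was not compared between these classes. Among all 6-letter words, after adjustment for length and GC content, the 6mer TACCTC ranked lowest of 4094 words in the 3′ UTR and of 4096 in the coding sequence. The 2961 genes with it in the 3′ UTR (26.4% of genes) differed from the rest by -0.2137 on the log2 scale, and the 3150 genes with it in the coding sequence (28.1%) by -0.1725. Words that overlap the same site followed in the coding sequence, CTACCT at -0.1191 and ACCTCA at -0.0721. At the other end stood AGCCTT, held by 42.8% of 3′ UTRs, at 0.1496. For this word the same difference was 0.1486 between KO_siNr6a1 and KO_siCtrl and 0.001 between KO_let-7g and KO_siNr6a1. Genes with a let-7 8mer were called lower in 35.3% of cases where the UTR also held AGCCTT and in 54.7% where it did not, and the part of this word in the results was not tested. A 3′ UTR 7mer for the passenger strand let-7g-3p, with no let-7 site in that UTR, was held by 1074 genes. Of these, 16.9% were called lower (median 0.087). Among all 8263 genes with no let-7 site in the 3′ UTR, which include them, 14.4% were (median 0.121). Neither set was cleared of genes with let-7 sites in the coding sequence. The median 3′ UTR was 1866 bases for the former and 891 bases for the latter.

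A list of 56 tested genes described as let-7 targets in the literature held 38 called lower and 2 called higher (1 after scaling by the median of ratios), with 16 not called and a median of -0.633. The list was drawn up with earlier results of these data known and is no independent evidence of its direction. By best site, 21 of 33 members with an 8mer were called lower, 10 of 12 with a 7mer-m8, 4 of 6 with a 7mer-A1, and 3 of the 5 with a 6mer or no 3′ UTR site. Within the list the share called lower thus did not follow the order of the site classes, and both members called higher have an 8mer. Of the 35 members with AGCCTT in the UTR 21 were called lower and 2 higher. Of the others 17 were lower and 0 higher (median -1.0). Against KO_siNr6a1, 36 members were called lower and 2 higher. With 1 setting changed or 1 library left out at a time, between 32 and 41 members were called lower.

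**Figure D2:**
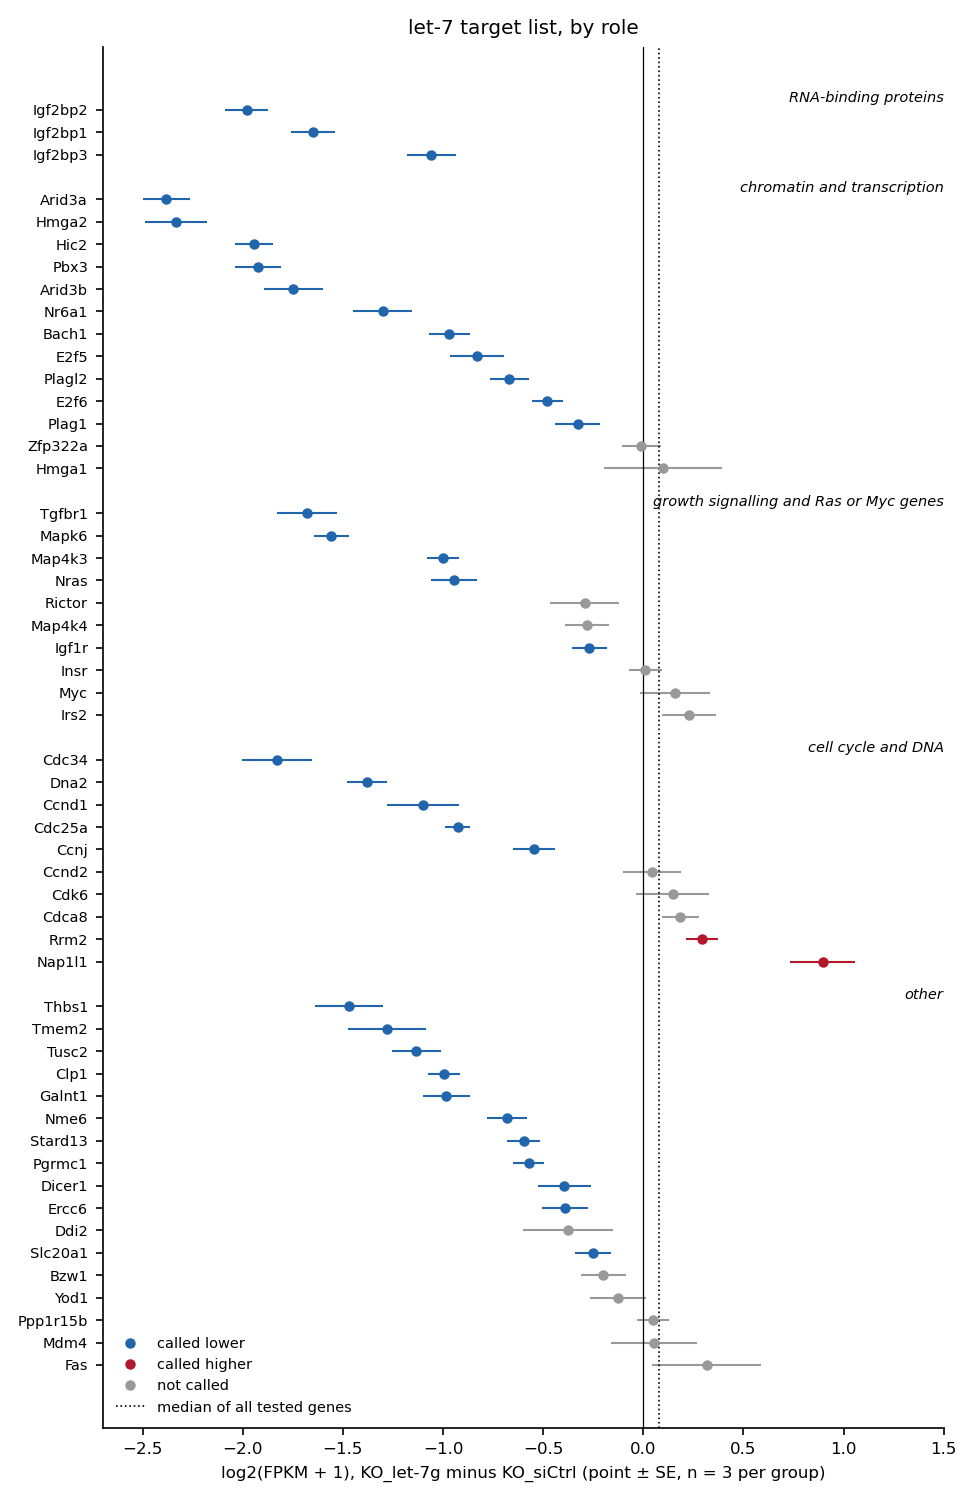
Log2 difference of KO_let-7g minus KO_siCtrl for 53 of the 56 tested members of the let-7 target list, in groups by role; points are estimates with SE from 3 libraries per group, coloured by call, and the dotted line is the median of all tested genes (0.076). All 3 Igf2bp genes and most chromatin and transcription genes lie left of -0.5, and only Nap1l1 and Rrm2 were called higher.

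The oncofetal RNA-binding proteins of the Igf2bp family, which bind and stabilise growth-related messenger RNAs and are nearly silent in most adult tissues, fell without exception (3 of 3). Igf2bp2 dropped from 139, 132 and 134 FPKM to 31.9, 38.98 and 30.2 FPKM (-1.98 ± 0.11, adjusted p = 8.7e-07). Igf2bp1, with 3 8mers, went from 26.6, 27.1 and 33.9 FPKM to 8.15, 7.97 and 9.67 FPKM (-1.65 ± 0.11, adjusted p = 2.3e-06). Igf2bp3 went from 39.04, 39.04 and 38.3 FPKM to 18.2, 20.97 and 15.5 FPKM (-1.06 ± 0.12, adjusted p = 5.4e-05). No let-7g library overlapped the control libraries for any of the 3 genes, and KO_siNr6a1 stayed near the control, at 24.7 to 28.8 FPKM for Igf2bp1. The wild-type level was not reached: WT_siCtrl cells held 1.59 to 2.12 FPKM of Igf2bp2, and let-7g cells stood above them (3.57 ± 0.11, adjusted p = 1.6e-09). Lin28a, Lin28b and Trim71, the other classical members of this role, did not reach the filter in any group.

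Among chromatin and transcription genes 11 of 13 members were called lower. Arid3a, a DNA-binding protein of the ARID family with an 8mer in both its UTR and its coding sequence, went from 12.9, 13.7 and 14.99 FPKM to 1.41, 2.20 and 1.98 FPKM (-2.38 ± 0.12, adjusted p = 5.3e-07), against 1.10 to 1.45 FPKM in WT_siCtrl. Hmga2, the architectural chromatin protein of embryonic growth, dropped from 101, 113 and 128 FPKM to 17.95, 25.5 and 22.4 FPKM (-2.33 ± 0.15, adjusted p = 2.1e-06). Hic2, a zinc-finger repressor, moved from 9.47, 10.1 and 10.5 FPKM to 1.76, 2.14 and 1.69 FPKM (-1.94 ± 0.10, adjusted p = 5.3e-07). The groups were far apart for each of these 3 genes, and KO_siNr6a1 held 107 to 130.3 FPKM of Hmga2. Pbx3, a homeodomain partner of Hox proteins, fell (-1.92 ± 0.12, adjusted p = 1.4e-06), below WT_siCtrl (-0.44 ± 0.12, adjusted p = 0.007), and Arid3b fell (-1.75 ± 0.15, adjusted p = 8.2e-06). Nr6a1, the nuclear receptor of germ cells and early embryos with 3 UTR 8mers, went from 12.6, 12.3 and 10.22 FPKM to 3.87, 5.38 and 3.39 FPKM (-1.30 ± 0.15, adjusted p = 4.7e-05). Its difference from the level left by the siRNA against it was not called (0.14 ± 0.15, adjusted p = 0.47). With 3 libraries in each group, exact permutation (two-sided) cannot go below p = 0.1, which is the value Nr6a1 gave. Bach1, a repressor of heme and oxidative stress genes, fell (-0.97 ± 0.10, adjusted p = 3.0e-05), and so did Plagl2 (-0.67 ± 0.10, adjusted p = 2.2e-04). The E2F genes E2f5 (-0.83 ± 0.14, adjusted p = 5.4e-04) and E2f6 (-0.48 ± 0.08, adjusted p = 4.6e-04) fell too. Plag1, low throughout, fell from 1.74, 1.52 and 1.27 FPKM to 1.147, 1.07 and 0.786 FPKM (-0.33 ± 0.11, adjusted p = 0.035). The call was lost without KO_siCtrl replicate 0 or 1 or KO_let-7g replicate 1 or 2 (adjusted p 0.127, 0.0769, 0.0564 and 0.130), with a pseudocount of 0.1 (0.0681) and with only the 2 groups compared (0.0532). Hmga1 (0.10 ± 0.29, adjusted p = 0.81) and Zfp322a (-0.01 ± 0.10, adjusted p = 0.94) were not called, and their groups overlapped.

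Growth signalling members split, with 7 of 12 called lower and none higher. Tgfbr1, the type I receptor for TGF-beta, fell from 29.2, 36.7 and 25.1 FPKM to 8.33, 10.7 and 7.27 FPKM (-1.68 ± 0.15, adjusted p = 1.1e-05), to below the 28.8 to 33.99 FPKM of WT_siCtrl. Mapk6, the atypical kinase ERK3, fell (-1.56 ± 0.09, adjusted p = 9.2e-07). Map4k3, a kinase upstream of mTOR signalling, fell (-0.9995 ± 0.08, adjusted p = 5.4e-06), and the small GTPase gene Nras (-0.95 ± 0.11, adjusted p = 7.1e-05). For Tgfbr1, Mapk6, Map4k3 and Nras the groups of libraries did not overlap. Igf1r fell (-0.27 ± 0.09, adjusted p = 0.025), a smaller change that did not survive every omission of a library. It lost its call without KO_siCtrl replicate 0 or 2 or KO_let-7g replicate 1 or 2 (adjusted p 0.0682, 0.0651, 0.0726 and 0.0697). Myc (0.16 ± 0.18, adjusted p = 0.5), the insulin receptor Insr (0.01 ± 0.08, adjusted p = 0.93) and its substrate Irs2 (0.23 ± 0.13, adjusted p = 0.19) were not called. Rictor (-0.29 ± 0.17, adjusted p = 0.19) and Map4k4 (-0.28 ± 0.11, adjusted p = 0.057) were not called, but both were with the replicate number as a block (adjusted p 0.0245 and 0.000752). Map4k4 was called lower in 8 of 23 settings, among them scaling by the median of ratios (0.023), library weights (0.0343) and 5 omissions of a library (0.0389 to 0.0484).

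Of the 10 cell cycle and DNA targets 5 were called lower and 2 higher. Cdc34, the ubiquitin-conjugating enzyme that marks cell cycle inhibitors for destruction, fell from 140.5, 165 and 195 FPKM to 36.7, 49.4 and 52.9 FPKM (-1.83 ± 0.17, adjusted p = 1.7e-05). Dna2, a nuclease-helicase of Okazaki fragment processing, fell (-1.38 ± 0.10, adjusted p = 3.5e-06). Cdc25a, the phosphatase that opens S phase, fell (-0.93 ± 0.06, adjusted p = 2.8e-06), and the cyclin gene Ccnj (-0.54 ± 0.10, adjusted p = 0.0016). Cyclin D1, Ccnd1, went from 142, 125 and 170.1 FPKM to 67.1, 56.9 and 78.2 FPKM (-1.1001 ± 0.18, adjusted p = 5.6e-04). Its difference from KO_siNr6a1 was not called (-0.20 ± 0.18, adjusted p = 0.4), except with library weights (adjusted p 0.0184). Nap1l1, a histone chaperone with a UTR 8mer, rose instead, from 97.5, 94.4 and 83.7 FPKM to 179, 168 and 167 FPKM (0.90 ± 0.16, adjusted p = 0.0011), with no call against KO_siNr6a1 (0.03 ± 0.16, adjusted p = 0.9). Rrm2, a ribonucleotide reductase subunit, rose (0.29 ± 0.08, adjusted p = 0.012), though not after scaling by the median of ratios (adjusted p 0.0838). Ccnd2 (0.04 ± 0.14, adjusted p = 0.84), Cdk6 (0.15 ± 0.18, adjusted p = 0.55) and Cdca8 (0.19 ± 0.09, adjusted p = 0.12) were not called; Cdca8 was called higher with the replicate block (adjusted p 0.0072).

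Among the 18 remaining targets 12 were called lower and none higher. Thbs1, the matricellular protein thrombospondin-1, fell from 432, 433 and 412 FPKM to 159, 178 and 126 FPKM (-1.47 ± 0.17, adjusted p = 5.5e-05), whereas KO_siNr6a1 stood above the control at 552 to 686 FPKM. The hyaluronidase gene Tmem2 went from 70.2, 63.6 and 52.2 FPKM to 28.1, 30.7 and 17.5 FPKM (-1.28 ± 0.20, adjusted p = 3.5e-04). Further falls were those of Tusc2 (-1.13), the RNA kinase Clp1 (-0.9952), the O-glycosylation enzyme Galnt1 (-0.98), Nme6 (-0.68), Stard13 (-0.60) and Pgrmc1 (-0.57), each with groups that did not overlap, as was the case in the falling direction for 22.4% of all genes. Dicer1 itself, with its 3 coding 8mers, fell from the low level left in the null cells to 2.88, 2.86 and 2.37 FPKM (-0.39 ± 0.13, adjusted p = 0.031). Without KO_siCtrl replicate 0 or 2 or KO_let-7g replicate 1 or 2 adjusted p was 0.0729, 0.0828, 0.0507 and 0.105, and with no filter on low values it was 0.0613. Ercc6 (-0.39 ± 0.12, adjusted p = 0.017) lost its call without KO_siCtrl replicate 0 (0.0636), and Slc20a1 (-0.25 ± 0.09, adjusted p = 0.04) in 11 settings, among them the omission of any of the 6 libraries compared (0.0562 to 0.119). Fas (0.32), Mdm4 (0.05), Ppp1r15b (0.05), Yod1 (-0.13), Bzw1 (-0.20) and Ddi2 (-0.38) were not called, although all but Bzw1, which has 7mer-m8 sites, carry an 8mer; Ddi2 was called lower with the replicate block (adjusted p 0.0181).

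Beyond the list, the largest falls among genes with an 8mer were those of 8430427H17Rik (-2.14), the orphan receptor Gprc5c (-2.06), the glycosyltransferase Gcnt4 (-1.75) and Lrig1, a brake on EGF receptors (-1.56). Next came the RNA-binding protein Rbm38 (-1.53), the RNA helicase Ddx19a (-1.46), Zc3hav1l (-1.45), Dtx2 (-1.44), the HIF hydroxylase Hif1an (-1.44) and Dpp3 (-1.44). Gprc5c went from 13.6, 14.3 and 11.6 FPKM to 2.09, 3.30 and 1.93 FPKM. Hif1an, with 2 8mers, went from 50.6, 45.6 and 45.4 FPKM to 17.8, 18.4 and 14.4 FPKM and was not called against WT_siCtrl (0.12 ± 0.10, adjusted p = 0.35), except with library weights (adjusted p 0.0448). An 8mer did not fix the direction: 64 of the 417 genes with one were called higher (15.3%). The largest of these rises were in Tgfb1i1, a focal adhesion adaptor (1.51), Tfam, which packages mitochondrial DNA (1.30), Pnpla8 (1.21), Tbc1d24 (1.1007) and Fam116a (1.05). Tfam rose from 8.84, 8.37 and 7.37 FPKM to 20.8, 20.6 and 23.5 FPKM, with no call against KO_siNr6a1 (0.21 ± 0.10, adjusted p = 0.13). Mcf2l, chosen after its values were seen because its UTR holds 7 8mers, rose from 2.47, 2.84 and 3.02 FPKM to 4.17, 4.90 and 4.795 FPKM (0.57 ± 0.10, adjusted p = 8.9e-04).

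The microRNA machinery was itself among the genes that moved: of 19 tested members 8 were called lower and 3 higher (median -0.135). Eif2c2, the gene for Argonaute 2, has a UTR 8mer and went from 44.1, 36.8 and 29.5 FPKM to 17.2, 14.7 and 9.31 FPKM (-1.38 ± 0.30, adjusted p = 0.0035), while Eif2c1, for Argonaute 1, rose (0.48 ± 0.11). Tarbp2, the partner of Dicer, fell from 56.6, 53.7 and 71.9 FPKM to 21.2, 24.5 and 25.01 FPKM (-1.32 ± 0.13, adjusted p = 2.3e-05), and Drosha, the nuclear hairpin-cutting enzyme (-0.46 ± 0.12). The uridylyltransferase Zcchc6, which tails small RNAs, rose (0.50 ± 0.12), as did the exonuclease Dis3l2, which degrades tailed RNAs (0.69 ± 0.09). The count of falls moved with single libraries: without KO_siCtrl replicate 0 it was 3, without KO_siCtrl replicate 2 it was 5, and without KO_let-7g replicate 1 or 2 it was 4.

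**Figure D3:**
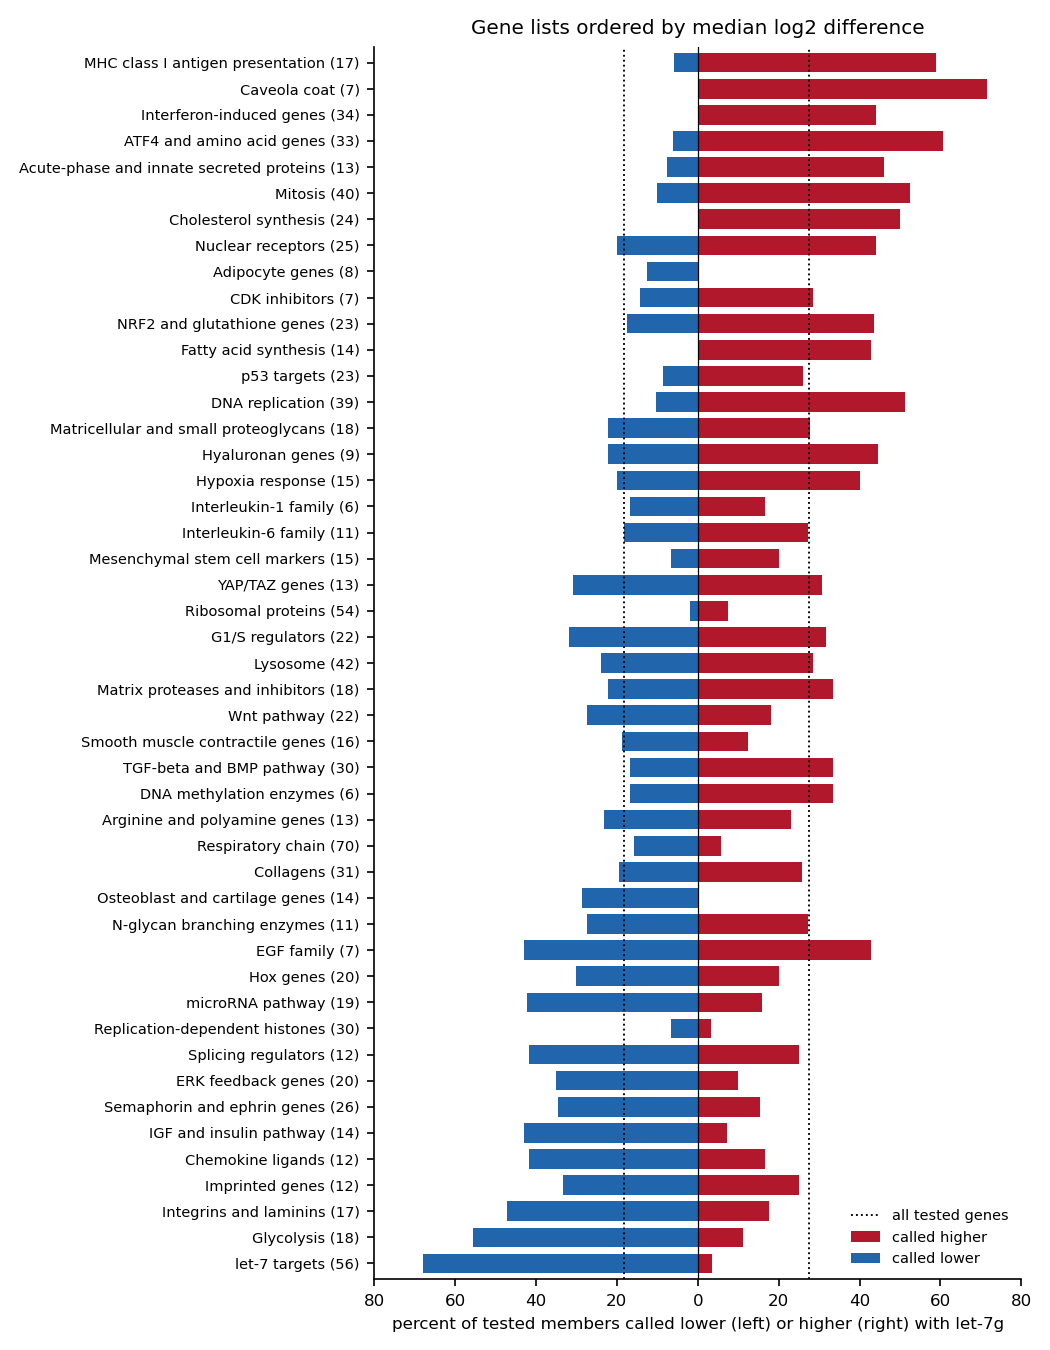
Percent of the tested members of each gene list (number in brackets) that were called lower, to the left, or higher, to the right, with let-7g, in the order of the lists' median difference; dotted lines mark all tested genes, 18.2% lower and 27.5% higher. The let-7 targets and glycolysis stand at the bottom with most members lower, and MHC class I genes and the caveola coat at the top with most members higher.

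Cell cycle genes of mitosis and DNA replication were called higher more often than lower with let-7g. These lists share Cdca8, Dna2 and Rrm2 with the target list. Of 40 mitosis genes 21 were called higher and 4 lower (median 0.367), and 32 were higher than in KO_siNr6a1. Foxm1, the transcription factor that drives the mitotic programme, went from 25.1, 25.1 and 27.1 FPKM to 81.3, 71.3 and 80.2 FPKM (1.5534 ± 0.07, adjusted p = 3.7e-07), well above WT_siCtrl (1.12 ± 0.07, adjusted p = 3.2e-07). Of 16 spindle and kinetochore genes 10 were higher and none lower, among them Cenpf (1.04 ± 0.21), Nusap1 (0.95 ± 0.11) and the centromeric histone Cenpa (0.86 ± 0.11). Cdc25b, the phosphatase that starts mitosis, rose (1.04 ± 0.10) and the kinase Aurka (0.59 ± 0.09). Among the 4 exceptions, the polo kinase Plk1 fell from 95.9, 82.95 and 106 FPKM to 56.9, 53.5 and 58.8 FPKM (-0.73 ± 0.10, adjusted p = 1.6e-04). Others were Espl1, the separase that releases sister chromatids and carries a 7mer-m8 (-1.12 ± 0.11), and the checkpoint kinase Bub1 (-0.52 ± 0.12). Ccnb1, cyclin B1, was not called (0.15 ± 0.09, adjusted p = 0.23).

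Of 39 DNA replication genes 20 were called higher and 4 lower (median 0.247), or 13 higher and 5 lower after scaling by the median of ratios. The rise lay in polymerases and clamp loaders (11 of 15, or 6 with the median of ratios) and nucleotide supply (5 of 7). Rfc2, a clamp loader subunit, went from 35.1, 30.8 and 34.6 FPKM to 78.02, 71.5 and 82.3 FPKM (1.18 ± 0.09, adjusted p = 4.5e-06). Dut, which clears dUTP, rose (1.16 ± 0.09), and Rrm1 (0.85 ± 0.10). Of 17 licensing and helicase genes 4 rose (7 with the replicate block) and 2 fell, among them Gins4 (0.73 ± 0.08) and the loader Cdc6 (-0.41 ± 0.11), and Pcna, the clamp, was not called (0.16 ± 0.09, adjusted p = 0.18). Among 22 regulators of the G1/S step, several of which are also on the target list, 7 rose and 7 fell. Cdk4, the partner of D cyclins, went from 70.02, 83.6 and 70.3 FPKM to 255, 313 and 314 FPKM (1.96 ± 0.17, adjusted p = 1.0e-05) although its UTR holds a 7mer-m8. Its difference from KO_siNr6a1 was not called (0.20 ± 0.17, adjusted p = 0.38). Cyclin E1, Ccne1, rose from 43.8, 51.4 and 50.5 FPKM to 84.5, 85.9 and 93.3 FPKM (0.84 ± 0.09, adjusted p = 2.6e-05) and was higher than in KO_siNr6a1 (1.43 ± 0.09, adjusted p = 4.3e-06). The E2F-family repressor E2f7 rose (0.96 ± 0.10) despite an 8mer, and E2f8 fell (-0.55 ± 0.09). Of 7 inhibitor genes of these kinases 2 were called higher, Cdkn1c (1.04 ± 0.21) and Cdkn2c (0.68 ± 0.15), and 1 lower (-0.363). Over all genes the shares were 27.5% and 18.2%. Across settings 1 to 4 inhibitor genes were higher and 0 to 1 lower. Cdkn2a, the Ink4a and Arf locus, was read at 287, 280.1 and 342 FPKM and 234, 278 and 296 FPKM and was not called. Of 30 replication-dependent histone genes 27 were not called; over all settings 1 to 4 were called higher and 0 to 7 lower.

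**Figure D4:**
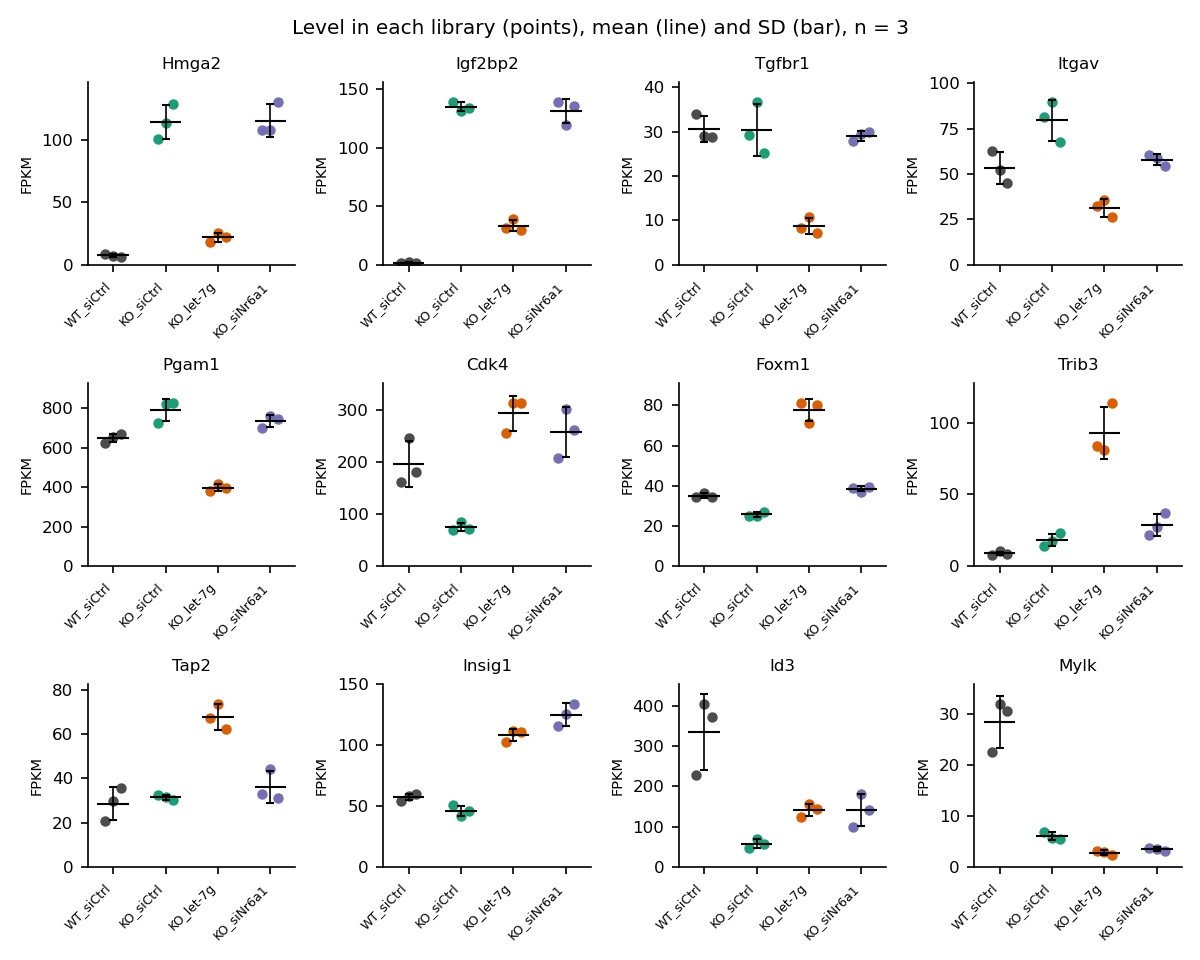
FPKM of 12 genes in every library of the 4 groups (points), with the mean (line) and SD (bar) of 3 libraries; each panel has its own vertical axis from 0. Hmga2, Igf2bp2 and Tgfbr1 were low in KO_let-7g but not in KO_siNr6a1, Foxm1, Trib3 and Tap2 were higher in every KO_let-7g library than in any other library, and Cdk4 was high in both KO_let-7g and KO_siNr6a1.

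In the insulin and IGF pathway, which carries growth signals through Akt, 6 of 14 genes were called lower and 1 higher. Akt1 fell from 119.8, 126 and 144 FPKM to 82.8, 86.01 and 89.9 FPKM (-0.58 ± 0.09, adjusted p = 4.8e-04). Akt2 rose from 25.5, 20.8 and 22.3 FPKM to 50.3, 47.9 and 50.9 FPKM (1.09 ± 0.10, adjusted p = 1.3e-05), so that the 2 kinases went opposite ways. Pik3r1, the regulatory PI3-kinase subunit (-0.50 ± 0.12), the adaptor Grb10 (-0.68 ± 0.18) and the binding protein Igfbp4 (-1.32 ± 0.31) fell too. The feedback genes of the ERK cascade, which are induced by ERK and restrain it, held 7 lower and 2 higher of 20 (median -0.213), and 6 higher with the replicate block. Of its 5 phosphatases 4 were lower: Dusp5 fell from 32.3, 32.3 and 39.6 FPKM to 10.9, 14.3 and 11.6 FPKM (-1.43 ± 0.14, adjusted p = 1.8e-05), and so did Dusp6 (-0.89 ± 0.13) and Dusp4 (-0.76 ± 0.16). The inhibitor Spred3 fell (-1.31 ± 0.13), and Spry2 (0.61 ± 0.11) and Spred1 (0.73 ± 0.16) rose. Dusp5 was lower than in KO_siNr6a1 (-0.74 ± 0.14, adjusted p = 0.0017), the only 1 of the 5 phosphatases so called, with none higher. The median of the 5 was -0.761 in KO_let-7g and -0.677 in KO_siNr6a1, each against KO_siCtrl. Among EGF family ligands Nrg1 rose from 3.78, 3.97 and 2.78 FPKM to 11.03, 7.93 and 9.93 FPKM (1.24 ± 0.15, adjusted p = 6.6e-05). Areg rose (0.70 ± 0.15) and Ereg, which has an 8mer, fell (-0.46 ± 0.12). Of the 5 ligands tested 3 were called higher and 2 lower, the larger fall being -0.809.

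For TGF-beta and BMP signalling, 10 of 30 genes were called higher and 5 lower (8 lower with the replicate block, with only the 2 groups compared or without WT_siCtrl replicate 2, and 3 without KO_siCtrl replicate 2 or KO_let-7g replicate 2). Beside the fall of its receptor Tgfbr1, the inhibitor of differentiation genes Id2 and Id3, which BMP signals induce, rose. Id3 went from 47.7, 69.5 and 56.2 FPKM to 125, 156 and 143 FPKM (1.29 ± 0.25, adjusted p = 0.0015). Id2 went from 40.8, 50.05 and 32.7 FPKM to 99.7, 124 and 103 FPKM (1.39 ± 0.19, adjusted p = 1.6e-04). Neither was called against KO_siNr6a1 (adjusted p 0.92 and 0.17), although Id2 was with the replicate block (adjusted p 0.0348). The signal carriers Smad1 (0.87 ± 0.14) and Smad5 (0.73 ± 0.15), the activin subunit Inhba (1.29 ± 0.27) and the activin trap Fst (1.24 ± 0.24) rose, and the inhibitory Smad6 fell (-1.08 ± 0.27). In the Wnt pathway 6 of 22 were lower and 4 higher, with 7 higher under the replicate block and 2 without replicate 0 or 2 of KO_siCtrl or replicate 1 of KO_let-7g. The ligand Wnt7b fell from 3.17, 1.63 and 3.57 FPKM to 0.484, 0.13 and 0.536 FPKM (-1.43 ± 0.19, adjusted p = 1.2e-04). The ligands Wnt10b (-1.09 ± 0.19) and Wnt5b (-0.61 ± 0.11) fell, and the nuclear effector Tcf7 rose (1.04 ± 0.12). Within the Hippo pathway Yap1 (-0.55 ± 0.07) and its paralogue Wwtr1, known as TAZ (-0.39 ± 0.08), both fell, while their DNA-binding partners parted. Tead2 rose from 12.6, 12.6 and 12.2 FPKM to 38.04, 40.4 and 41.5 FPKM (1.6038 ± 0.13, adjusted p = 6.3e-06), as did Tead1 (0.87 ± 0.18). Tead3 (-0.78 ± 0.19) and Tead4 (-0.95 ± 0.17), each with a 7mer-m8, fell.

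Of 34 interferon-induced genes 15 were called higher and none lower (median 0.434). With a mean of at least 5 FPKM required, which removes low members, 8 were higher, and after quantile or median of ratios scaling 1 was lower. Irf7, the amplifier of the interferon response, went from 0.925, 1.83 and 1.203 FPKM to 5.59, 7.52 and 4.22 FPKM (1.54 ± 0.28, adjusted p = 0.0012). Irf9 (0.83 ± 0.20), the guanylate-binding protein Gbp2 (1.1010 ± 0.25), Xaf1 (1.03 ± 0.19) and the kinase PKR, encoded by Eif2ak2 (0.74 ± 0.13), rose as well. The classical sensors Ifit1 (0.19 ± 0.20, adjusted p = 0.47) and Ifit3 (0.39 ± 0.20, adjusted p = 0.14) were not called. Against KO_siNr6a1 11 members were higher, a count that fell to 7 without KO_let-7g replicate 0 or 1 or KO_siNr6a1 replicate 2 and was 17 without KO_let-7g replicate 2. It was 25 with library weights, 7 after scaling by the median of ratios and 5 with a mean of at least 5 FPKM required. MHC class I presentation, by which cells show peptides to T cells, had 10 of 17 members higher (median 0.603) and 1 lower. The latter count was 2 with the replicate block, library weights, a mean of at least 5 FPKM, median of ratios scaling or without KO_let-7g replicate 2, and 0 without KO_siCtrl replicate 0 or 1 or KO_let-7g replicate 0. Psmb9, an immunoproteasome subunit, went from 20.3, 16.9 and 15.4 FPKM to 49.8, 55.3 and 45.01 FPKM (1.46 ± 0.27, adjusted p = 0.0012). The peptide pump subunit Tap2 went from 32.6, 31.5 and 30.1 FPKM to 67.1, 73.6 and 62.1 FPKM (1.08 ± 0.18, adjusted p = 5.7e-04). The heavy chain H2-D1 went from 91.9, 106 and 102 FPKM to 194, 222 and 216 FPKM (1.06 ± 0.21, adjusted p = 0.0019). Nlrc5, the activator of these genes, rose from 0.153, 0.19 and 0.0751 FPKM to 1.29, 1.07 and 1.01 FPKM (0.90 ± 0.12, adjusted p = 1.5e-04) though its UTR holds an 8mer. WT_siCtrl held 11.5 to 15.6 FPKM. The summed blood cell markers given above were not higher in the let-7g libraries. Of the 2 that could be tested, 1 was called higher (0.398) and the other was not called (-0.634). The part of blood cells in these rises was not tested.

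Of 13 genes of acute-phase and innate secreted proteins 6 were called higher and 1 lower (median 0.385). Quantile scaling, median of ratios scaling or the replicate block gave 2 lower. So did omitting KO_siCtrl replicate 2, KO_let-7g replicate 1 or KO_siNr6a1 replicate 1. The haptoglobin gene Hp, the 1 called lower, fell from 57.5, 58.97 and 60.6 FPKM to 6.96, 13.4 and 4.51 FPKM (-2.81 ± 0.43, adjusted p = 3.6e-04). The siderophore-binding protein Lcn2 rose from 1.45, 0.458 and 1.23 FPKM to 3.20, 6.12 and 4.25 FPKM (1.43 ± 0.22, adjusted p = 3.7e-04). The complement proteases C1s (0.78 ± 0.18) and C1ra (0.61 ± 0.14) rose. Of 12 chemokine ligands 5 were called lower and 2 higher, or 1 higher with no filter on low values, with median of ratios scaling, or without replicate 0 or 2 of KO_siCtrl or replicate 1 of KO_let-7g. The neutrophil attractant Cxcl5 fell from 103, 155 and 124 FPKM to 52.9, 78.5 and 54.5 FPKM (-1.03 ± 0.20, adjusted p = 0.0017), and Ccl25 fell (-0.50 ± 0.09). The interferon-induced Cxcl10 rose from 12.4, 23.8 and 12.6 FPKM to 30.4, 35.6 and 56.3 FPKM (1.29 ± 0.29, adjusted p = 0.0043). For interleukin-6 signalling the receptor Il6ra (1.1009 ± 0.15) and Stat3 (0.94 ± 0.10) rose while the ligand Clcf1 (-0.83 ± 0.18) fell.

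Of 24 cholesterol synthesis genes 12 were called higher and none lower (median 0.349), yet 13 were lower than in KO_siNr6a1. Of the 12 with AGCCTT in the UTR 8 were higher, and of the others 4 (median 0.259). Insig1, the sterol-sensing brake on the pathway, went from 50.5, 41.8 and 45.8 FPKM to 103, 112 and 111 FPKM (1.22 ± 0.09, adjusted p = 2.8e-06). The methyl sterol oxidase Sc4mol went from 60.99, 60.002 and 53.5 FPKM to 104, 125 and 110.1 FPKM (0.94 ± 0.18, adjusted p = 0.0013), against 178, 224 and 227 FPKM in KO_siNr6a1. Fdft1 (0.68 ± 0.11), Cyp51 (0.69 ± 0.10), Sqle (0.60 ± 0.11) and Pmvk (0.94 ± 0.15), which act between mevalonate and cholesterol, rose, and so did the regulator Srebf2 (0.39 ± 0.09). Of 14 fatty acid genes 6 rose and none fell, with 1 lower under quantile or median of ratios scaling or the replicate block. Of the 9 with AGCCTT in the UTR 5 rose, and of the others 1. The desaturases Scd1 (1.04 ± 0.14) and Fads1 (0.93 ± 0.12) and the elongase Elovl5 (0.78 ± 0.13) rose.

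Of 18 glycolysis genes 10 were called lower and 2 higher (median -0.479), or 1 higher with no filter, with quantile, upper quartile or median of ratios scaling, with only the 2 groups compared, or without KO_siCtrl replicate 1 or 2, KO_let-7g replicate 0 or 2 or KO_siNr6a1 replicate 1. Against KO_siNr6a1 10 were lower and none higher. Pgam1, which moves the phosphate of phosphoglycerate, went from 726, 823 and 828 FPKM to 381, 418 and 394 FPKM (-0.99 ± 0.08, adjusted p = 6.3e-06). The lactate exporter Slc16a3 went from 20.8, 19.09 and 20.99 FPKM to 8.82, 9.08 and 6.39 FPKM (-1.24 ± 0.16, adjusted p = 1.2e-04). The committing enzymes Pfkm (-1.03 ± 0.11) and Pfkp (-0.63 ± 0.11), hexokinase Hk2 (-0.87 ± 0.18), aldolase Aldoa (-0.58 ± 0.09), lactate dehydrogenase Ldha (-0.47 ± 0.08) and the glucose carrier Slc2a1 (-0.74 ± 0.13) fell. Slc16a1, a monocarboxylate carrier, rose from 30.2, 27.1 and 27.2 FPKM to 52.1, 52.6 and 52.9 FPKM (0.88 ± 0.12, adjusted p = 1.7e-04). Pgk1 was not called (0.07 ± 0.13, adjusted p = 0.69). Hif1a, the oxygen-regulated activator of many of these genes, fell from 116, 126 and 92.4 FPKM to 79.5, 82.7 and 58.7 FPKM (-0.59 ± 0.14, adjusted p = 0.0047). The hypoxia list as a whole had 6 of 15 higher and 3 lower (5 lower with the replicate block). Ndrg1 rose from 19.4, 14.1 and 21.4 FPKM to 69.7, 66.1 and 81.9 FPKM (1.94 ± 0.14, adjusted p = 3.2e-06). Ddit4, an inhibitor of mTOR, rose (1.02 ± 0.17), the mitophagy receptor Bnip3l rose (0.87 ± 0.12), and adrenomedullin, Adm, fell (-1.06 ± 0.17). Of 70 respiratory chain genes 11 were lower, with 7 lower without KO_siCtrl replicate 0, KO_let-7g replicate 0 or KO_let-7g replicate 1, and 4 were higher, with 2 higher after scaling by the median of ratios or without KO_siCtrl replicate 0 or 1 or KO_let-7g replicate 1 or 2. Ndufb7 of complex I (-1.08 ± 0.13) and Uqcrc1 of complex III (-0.99 ± 0.12) were among those that fell.

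**Figure D5:**
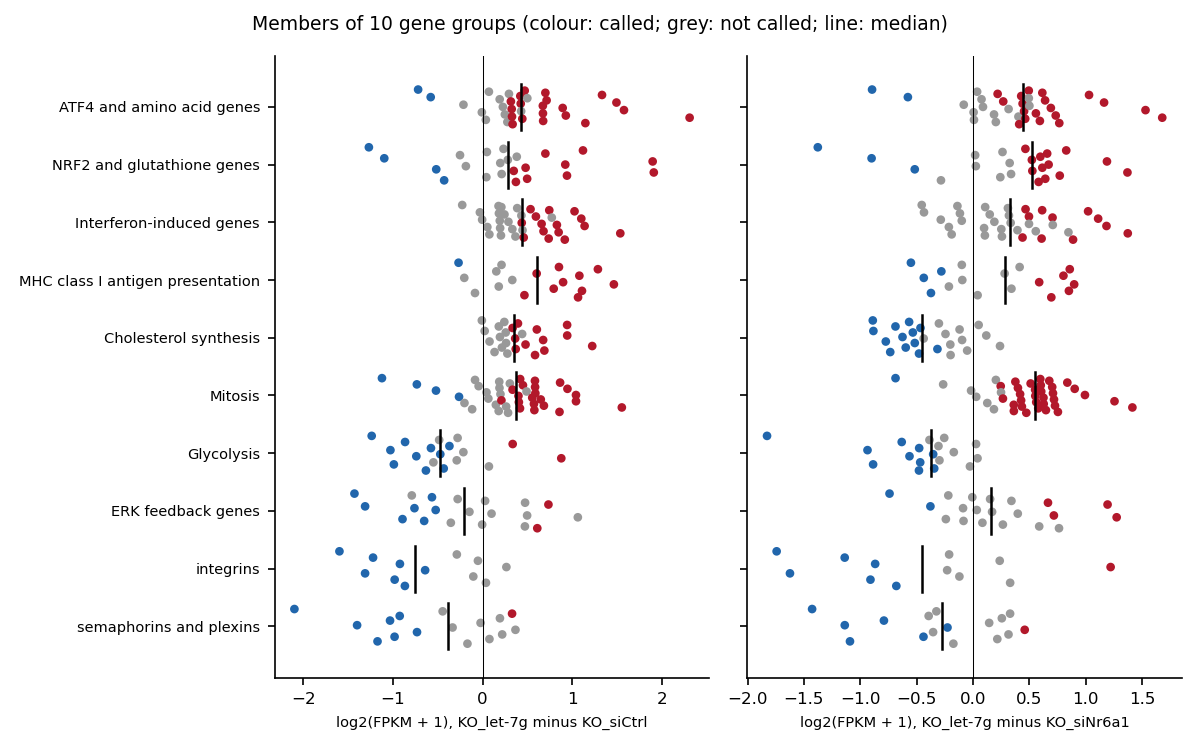
Log2 difference of each tested member of 10 gene groups, KO_let-7g minus KO_siCtrl on the left and KO_let-7g minus KO_siNr6a1 on the right; points are genes, coloured red where called higher, blue where called lower and grey where not called, and the black line is the group's median. The 2 panels share the let-7g libraries. Cholesterol synthesis lies right of 0 on the left (12 of 24 called higher) and left of 0 on the right (13 called lower), while the medians of integrins and glycolysis lie left of 0 in both. The horizontal axes of the panels differ in range.

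The ATF4 programme, which cells switch on when amino acids are short or the endoplasmic reticulum is stressed, had 20 of 33 genes higher and 2 lower (median 0.425). Against KO_siNr6a1 19 were higher, or 11 after scaling by the median of ratios. Of its 8 regulators 6 were higher. Trib3, a pseudokinase, went from 14.2, 17.1 and 22.7 FPKM to 83.8, 80.8 and 113.8 FPKM (2.31 ± 0.21, adjusted p = 1.4e-05). Atf3, a stress-induced factor, went from 7.25, 8.90 and 8.42 FPKM to 23.8, 21.8 and 29.3 FPKM (1.49 ± 0.12, adjusted p = 4.8e-06). Chac1, which degrades glutathione, rose (1.58 ± 0.24). Atf4 itself rose from 237, 303 and 289.6 FPKM to 382, 431 and 515 FPKM (0.67 ± 0.15, adjusted p = 0.0035). Asparagine synthetase, Asns, rose (1.1465 ± 0.14), the proline enzyme Pycr1 (0.93 ± 0.09) and the cystine and neutral amino acid carriers Slc7a11 (0.70), Slc7a5 (0.68) and Slc3a2 (0.71). Of 12 tRNA synthetases 6 rose and 2, Gars (-0.58 ± 0.08) and Iars (-0.72 ± 0.14), fell. Of 23 NRF2 and glutathione genes 10 rose and 4 fell, or 2 without KO_let-7g replicate 0 or 1. The NRF2 target Srxn1 rose from 21.4, 24.3 and 27.4 FPKM to 79.5, 83.8 and 124 FPKM (1.91 ± 0.16, adjusted p = 8.0e-06). Hmox1 (1.12 ± 0.25), which Bach1 represses, and Gclm (0.94 ± 0.15) rose, and so did the membrane glutathione transferase Mgst1 (1.90 ± 0.36). Glutathione reductase, Gsr, fell from 118, 119.8 and 136 FPKM to 45.2, 55.5 and 52.8 FPKM (-1.27 ± 0.09, adjusted p = 3.2e-06), and the transferase Gstt1 (-1.0980 ± 0.23).

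In the lysosome 12 of 42 genes rose and 10 fell, against 27.5% and 18.2% of all genes. The list's median was 0.067, and that of all genes 0.076. By role, 7 of 14 regulators and membrane proteins rose and 2 fell (1 without KO_siCtrl replicate 0 or KO_let-7g replicate 0). Of 28 hydrolases 5 rose and 8 fell. Mitf, a transcription factor of lysosomal genes, rose from 2.01, 2.09 and 2.17 FPKM to 3.98, 4.13 and 4.37 FPKM (0.74 ± 0.09, adjusted p = 6.9e-05). Others that rose were Cd68 (1.26 ± 0.17) and the receptor Scarb2 (0.83 ± 0.10). Among hydrolases Man2b1 (-1.1491 ± 0.11), Gusb (-0.87 ± 0.08) and Ctsl (-0.67 ± 0.11) fell and Psap (0.64 ± 0.10) and Ids (0.88 ± 0.15) rose. The coat of caveolae, the small pits of the plasma membrane, rose in 5 of 7 genes. Of the 6 with AGCCTT in the UTR 4 rose, and 1 rose without it. Caveolin-1, Cav1, went from 32.3, 30.3 and 26.8 FPKM to 81.4, 72.8 and 69.2 FPKM (1.29 ± 0.17, adjusted p = 1.1e-04) and Ptrf, or cavin-1, rose (0.45 ± 0.10). No caveola gene was called lower, but 1 was under median of ratios scaling, the replicate block or without KO_siCtrl replicate 1.

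At the cell surface integrins, the receptors that tie cells to matrix, were lower with let-7g. Of 12 subunits 7 were called lower and none higher (median -0.755), with 1 higher under the replicate block or no filter on low values. Itgav went from 81.5, 89.7 and 67.4 FPKM to 32.2, 35.97 and 26.2 FPKM (-1.31 ± 0.15, adjusted p = 4.2e-05). Its partner Itgb3 went from 5.06, 4.37 and 3.55 FPKM to 0.786, 1.02 and 0.476 FPKM (-1.5984 ± 0.16, adjusted p = 1.9e-05). Another partner, Itgb5, went from 107, 104 and 102 FPKM to 63.7, 58.5 and 49.2 FPKM (-0.87 ± 0.11, adjusted p = 7.3e-05). Itga5 (-0.64 ± 0.07), Itga3 (-0.92 ± 0.11) and Itga11 (-0.98 ± 0.19) fell as well, whereas the common subunit Itgb1 was not called (-0.10 ± 0.12, adjusted p = 0.52). Itgb3, Itgb5, Itgav and Itga5 were also lower than in KO_siNr6a1 (log2 differences -1.74, -0.91, -0.87 and -0.68), and Itgb7, which fell against the control (-1.22 ± 0.29), was higher than there (1.22 ± 0.29, adjusted p = 0.0069). Of 5 laminin chains 3 rose, among them Lamc1 (1.03 ± 0.16) and Lamb2 (0.90 ± 0.11), and Lamb1 fell (-0.64 ± 0.16). Of the 8 integrin and laminin genes with AGCCTT in the UTR 3 were higher, all laminins, and 2 lower. Of the other integrin and laminin genes 0 were higher and 6 lower. Of 16 semaphorins and plexins, guidance molecules and their receptors, 7 were lower and 1 higher (0 to 2 higher over all settings). Sema7a, which binds integrins, dropped from 43.3, 29.9 and 51.8 FPKM to 10.05, 6.70 and 9.74 FPKM (-2.10 ± 0.22, adjusted p = 2.7e-05). Sema5a (-1.4013 ± 0.22), Sema3f (-1.17 ± 0.17), Plxna1 (-0.98 ± 0.11) and Sema4c, which has an 8mer (-1.03 ± 0.15), fell too. Neither Sema7a nor Sema5a was called against KO_siNr6a1 (adjusted p 0.38 and 0.23), although Sema5a was with the replicate block (adjusted p 0.0138).

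Collagens and their processing enzymes were mixed, 8 of 31 higher and 6 lower. The counts moved to 5 higher with a mean of at least 5 FPKM or without KO_siCtrl replicate 0 or KO_let-7g replicate 1, and to 3 lower with upper quartile scaling or without KO_siCtrl replicate 0 or KO_let-7g replicate 2. Col15a1 went from 1.10, 1.07 and 0.491 FPKM to 4.24, 5.60 and 2.20 FPKM (1.36 ± 0.26, adjusted p = 0.0014). Col6a1 rose (0.63 ± 0.15), while the crosslinking enzymes Loxl2 (-0.94 ± 0.12) and Loxl3 (-0.76 ± 0.09) fell. Col1a2, the abundant chain of type I collagen with an 8mer, was not called (0.06 ± 0.08, adjusted p = 0.6); it was read at 311, 299 and 274 FPKM with let-7g and at 1261 to 1476 FPKM in WT_siCtrl. Against KO_siNr6a1, 12 collagen genes were lower. Of 18 matrix proteases and inhibitors 6 were higher and 4 lower. The gelatinase Mmp2 rose from 2.55, 2.99 and 3.08 FPKM to 13.3, 14.6 and 19.2 FPKM (2.10 ± 0.16, adjusted p = 4.7e-06). Mmp14, its membrane-bound activator, fell from 117, 133 and 109.8 FPKM to 55.2, 65.5 and 48.6 FPKM (-1.08 ± 0.14, adjusted p = 1.3e-04). The inhibitors Timp1 (0.67 ± 0.14), Timp2 (0.74 ± 0.09) and Timp3 (0.75 ± 0.17) all rose. For hyaluronan, the sugar polymer of loose matrix, the synthase Has2 rose (1.21 ± 0.29) and the hyaluronidase Hyal2 fell (from 18.5, 20.8 and 24.5 FPKM to 5.36, 6.68 and 5.24 FPKM; -1.72 ± 0.15, adjusted p = 1.2e-05). Of the contractile genes of smooth muscle, Acta2 was at 18.5, 18.2 and 14.4 FPKM in the control, 23.8, 22.8 and 15.1 FPKM with let-7g and 1119 to 1386 FPKM in WT_siCtrl, and Mylk fell (-0.88 ± 0.14).

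Of 20 Hox genes, which keep a cell's position along the body axis, 6 were called lower and 4 higher, and 10 lower with the replicate block; with a mean of at least 5 FPKM required, 3 were lower and none higher. Hoxa7 fell from 12.5, 14.6 and 16.6 FPKM to 3.61, 4.85 and 4.31 FPKM (-1.56 ± 0.17, adjusted p = 3.8e-05). Hoxa9 (-1.08 ± 0.14) fell, and Hoxc13 (0.91 ± 0.17) and Hoxc9 (0.77 ± 0.13) rose. Of 12 imprinted genes, which are read from a single parental copy, 4 were lower and 3 higher (median -0.276). Peg10 fell from 102, 103 and 90.02 FPKM to 26.4, 38.4 and 22.9 FPKM (-1.75 ± 0.17, adjusted p = 2.0e-05), and Slc38a4 fell (-1.12 ± 0.11). Of 25 nuclear receptors, Nr6a1 included, 11 were higher and 5 lower (median 0.346). Among the 13 with AGCCTT in the UTR 8 were higher and 1 lower. Among the others 3 were higher and 4 lower (median -0.023). The vitamin D receptor Vdr went from 20.7, 22.96 and 23.9 FPKM to 58.2, 60.003 and 65.3 FPKM (1.4026 ± 0.11, adjusted p = 6.3e-06). The retinoic acid receptor Rarg rose (1.19 ± 0.12), while Rarb (-0.69 ± 0.15) and the orphan receptor Nr2f2 (-0.66 ± 0.09) fell. Klf4, the pluripotency factor that is also expressed in stroma, rose from 7.13, 9.01 and 7.80 FPKM to 35.4, 39.3 and 39.01 FPKM (2.12 ± 0.16, adjusted p = 4.7e-06). The other pluripotency and germline genes of its list did not reach the filter.

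Splicing regulators had 5 of 12 lower and 3 higher. Of the 7 with AGCCTT in the UTR 3 were lower and 3 higher, and of the others 2 and 0. Ptbp2, the neuronal polypyrimidine tract protein, fell from 56.3, 66.7 and 51.5 FPKM to 15.8, 17.97 and 13.8 FPKM (-1.81 ± 0.12, adjusted p = 2.8e-06), and Celf4 fell (-1.32 ± 0.14). Mbnl1, which promotes adult splice forms, rose from 18.7, 23.4 and 15.97 FPKM to 67.5, 79.9 and 61.4 FPKM (1.80 ± 0.16, adjusted p = 9.6e-06). Ptbp2 was not called against KO_siNr6a1 (0.04 ± 0.12, adjusted p = 0.81). Of 11 N-glycan enzymes 3 rose and 3 fell. Mgat3, which adds the bisecting sugar, went from 36.7, 30.3 and 34.3 FPKM to 13.5, 13.3 and 11.6 FPKM (-1.33 ± 0.09, adjusted p = 2.8e-06). In the p53 pathway 6 of 23 genes rose and 2 fell (5 with the replicate block or median of ratios scaling, 4 with quantile scaling). Trp53inp1, a p53-induced regulator of autophagy and cell death, rose from 3.16, 2.80 and 1.56 FPKM to 14.7, 16.2 and 13.7 FPKM (2.20 ± 0.26, adjusted p = 6.8e-05), and Trp53 itself rose (0.40 ± 0.09). The p53 ligase Mdm2 fell from 41.6, 49.8 and 43.02 FPKM to 23.2, 28.7 and 25.3 FPKM (-0.78 ± 0.11, adjusted p = 1.5e-04). Cdkn1a, the best known p53 target, was read at 53.5, 55.04 and 65.4 FPKM and 50.1, 54.5 and 61.6 FPKM and was not called (adjusted p 0.89). Tet3, a DNA demethylating enzyme with an 8mer, fell from 23.4, 22.3 and 23.7 FPKM to 13.3, 13.3 and 11.8 FPKM (-0.81 ± 0.10, adjusted p = 6.2e-05). Of 54 ribosomal protein genes 4 were called higher, or 9 with the replicate block, and 1 lower, or 2 with the block and 0 without KO_siCtrl replicate 1 or 2 or KO_let-7g replicate 0 or 1.

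The largest changes of the whole table included many genes outside the target list. The largest fall was that of Rpph1, the RNA of ribonuclease P, from 41.4, 78.7 and 68.1 FPKM to 2.01, 4.29 and 2.57 FPKM (-4.00 ± 0.40, adjusted p = 2.3e-05). It was low in KO_siNr6a1 (5.58, 13.8 and 5.02 FPKM) and WT_siCtrl (3.77, 10.1 and 4.90 FPKM) as well, so that KO_siCtrl was the highest group. Small nucleolar RNAs were among the largest rises: Snord12 was listed at 0 in all 3 control libraries and at 111, 206 and 142 FPKM with let-7g, against 112, 176 and 128 FPKM in KO_siNr6a1. Snora62 and Snora78, listed at 0 in the control, were at 8.44, 18.4 and 10.8 FPKM and 5.38, 9.18 and 20.8 FPKM. Snora5c was at 0, 0 and 29.7 FPKM in the control and at 34.3, 67.2 and 63.1 FPKM with let-7g. FPKM of such short RNAs depends strongly on their length, and their level relative to messenger RNAs was not tested. Kbtbd11 went from 11.1, 12.5 and 10.9 FPKM to 1.44, 1.95 and 1.06 FPKM (-2.35 ± 0.16, adjusted p = 2.4e-06). Tmem119, a gene of bone formation, went from 51.7, 46.6 and 53.7 FPKM to 8.72, 9.49 and 7.60 FPKM (-2.43 ± 0.17, adjusted p = 3.1e-06). Arg2, mitochondrial arginase, went from 54.03, 71.8 and 66.03 FPKM to 9.65, 11.6 and 12.5 FPKM (-2.40 ± 0.17, adjusted p = 3.1e-06). Angpt4, an angiopoietin, fell from 9.47, 10.5 and 7.03 FPKM to 0.899, 2.25 and 0.441 FPKM (-2.25 ± 0.32, adjusted p = 1.9e-04). D0H4S114 fell from 31.4, 38.7 and 19.5 FPKM to 5.71, 9.02 and 2.11 FPKM (-2.33 ± 0.39, adjusted p = 6.8e-04). Of the rises, Stbd1, which tethers glycogen to membranes, went from 1.28, 1.75 and 1.46 FPKM to 17.7, 20.1 and 18.3 FPKM (2.98 ± 0.10, adjusted p = 6.2e-08). The secreted carbonic anhydrase Car6 went from 0.0478, 0.073 and 0.129 FPKM to 7.82, 8.29 and 11.8 FPKM (3.23 ± 0.20, adjusted p = 1.5e-06). Gpnmb, a glycoprotein of lysosomes, went from 2.13, 1.87 and 2.30 FPKM to 25.97, 24.5 and 37.7 FPKM (3.27 ± 0.23, adjusted p = 3.1e-06). The stromelysin Mmp3 rose from 0.279, 0.467 and 0.11 FPKM to 12.5, 9.68 and 10.4 FPKM (3.21 ± 0.14, adjusted p = 3.2e-07). Cox6a2, the muscle form of a complex IV subunit, rose from 0.203, 0.00837 and 0.0617 FPKM to 3.39, 6.08 and 5.80 FPKM (2.45 ± 0.20, adjusted p = 5.7e-06), and Gm5886 rose from 0.507, 0.776 and 0.457 FPKM to 4.56, 14.1 and 6.48 FPKM (2.44 ± 0.28, adjusted p = 5.1e-05).

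Of 15 tested stem cell markers 3 were called higher and 1 lower (2 with the replicate block, library weights, quantile or median of ratios scaling or only the 2 groups compared, or without KO_siCtrl replicate 0 or WT_siCtrl replicate 0 or 2). Ly6a, or Sca-1, rose from 50.4, 43.1 and 53.01 FPKM to 86.9, 94.01 and 102 FPKM (0.94 ± 0.13, adjusted p = 1.4e-04), and Pdgfrb fell (-0.55 ± 0.10). Of 14 osteoblast and cartilage genes 4 were lower, and 2 were with no filter, with a mean of at least 5 FPKM or without KO_siCtrl replicate 1, while 1 was higher with the replicate block; the bone matrix regulator Phex fell (-0.93 ± 0.14). The main osteoblast factor Runx2 was read at 18.1, 22.05 and 18.2 FPKM and 19.04, 19.97 and 18.2 FPKM. The mineralization enzyme Alpl was at 26.3, 48.7 and 22.5 FPKM and 26.01, 51.9 and 18.9 FPKM, against 336 to 668 FPKM in WT_siCtrl. Neither was called. Of 8 adipocyte genes 1 was lower, the lipid droplet coat Plin2 (-0.39 ± 0.09), and none was higher, but 5 were with the replicate block, 2 with library weights, and 1 with only the 2 groups compared or without WT_siCtrl replicate 0 or 2, KO_siCtrl replicate 1 or KO_siNr6a1 replicate 0.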

How the data were processed

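RNA-seq of 12 libraries in 4 groups of 3 was analysed as gene-level FPKM, a unit normalised to transcript length and to mapped fragments, in tables the authors deposited. The submitters' processing notes name TopHat 1.2.0, Cufflinks 1.0.3 and the mouse build mm9; strand use is not stated, so overlapping antisense genes cannot be told apart. FPKM carry no read totals, so only relative depth was read from the steps of low values. No column of per-sample values was left unused (0).

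Genes with at least 1 FPKM in at least 3 of the 12 libraries were tested on log2(FPKM + 1) with limma 3.58.1 (R 4.3.3): 1 coefficient per group over all 12 libraries, a variance trend and Benjamini-Hochberg adjustment over all tested genes, after a test of the same steps on simulated data. Site classes come from the transcript of each gene with the longest annotated 3′ UTR (GENCODE M21, GRCm38), a newer annotation than that of the FPKM. Coding sites were searched in the coding sequence of that same transcript only. The members and gene lists were chosen with earlier results of these data known. Named were Nr6a1, Dicer1, tested let-7 targets, genes from the 10 largest non-overlapping rises and falls, key members and up to 6 called members of each list, and 10 falls and 5 rises among other genes with an 8mer; some genes under this rule are not reported here, and counts of lists include them.

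Replicate numbers pair the libraries by the data: deviations from the group means correlated at 0.267, 0.127 and 0.221 between KO_let-7g and KO_siCtrl libraries with the same number and at -0.190 to -0.034 between others. The labels do not say what a number marks. Values with the replicate number as a block stand beside a call they change or a count they move by over 1.5 times. Other pseudocounts, filters, scalings, variance models, library weights, the 2 groups alone, shortest 3′ UTRs and the omission of each library were also run.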

Additional observations from a re-analysis of the deposited data

How the results depend on the processing

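Of the counts over all genes, the number called higher ranged from 2495 to 4085 and the number lower from 1789 to 2793 over 23 settings, each within 1.5 times the values given; with 1 library left out they ranged from 2769 to 3413 and from 1789 to 2269. Target genes called lower ranged from 32 to 41 (32 to 39 with 1 library left out), and genes with an 8mer called lower from 112 (shortest 3′ UTR, where 232 genes held an 8mer) to 214 (replicate block), and from 160 to 191 with 1 library left out. With the replicate block, 4085 genes were higher and 2793 lower, and no call of a named gene was lost; the calls it added are given with the genes. Of 255 called gene comparisons, 249 were called in every setting and none changed sign. Many of these genes were named for the size of a called change, so this share does not describe all genes. Over the same 11801 genes the share called was 45.6%. It ranged from 38.7% without KO_let-7g replicate 0 to 58.3% with the replicate block.

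Differences near 0 that were not called changed sign in some settings; the cause was not tested. With quantile scaling these were Insr (-0.13) and Mdm4 (-0.03), and against KO_siNr6a1 Nr6a1 (-0.03) and Ptbp2 (-0.06). With median of ratios scaling they were Ccnd2 (-0.05), Col1a2 (-0.04), Insr (-0.07), Mdm4 (-0.03), Pgk1 (-0.02) and Ppp1r15b (-0.04), against KO_siNr6a1 Id3 (-0.12), Nap1l1 (-0.13) and Ptbp2 (-0.11), and against WT_siCtrl Hif1an (-0.01). With library weights they were Zfp322a (0.01) and, against KO_siNr6a1, Id3 (-0.04). With 1 library left out, the range crossed 0 for Ccnd2 -0.05 to 0.16, Cdkn1a -0.14 to 0.03, Hmga1 -0.26 to 0.36, Insr -0.03 to 0.05, Mdm4 -0.09 to 0.24 and Zfp322a -0.06 to 0.05, and against KO_siNr6a1 for Id3 -0.19 to 0.24, Nap1l1 -0.06 to 0.15, Nr6a1 -0.01 to 0.26 and Ptbp2 -0.05 to 0.13. FPKM without read totals give no counting error for single genes, so the precision of low genes is known only from the spread of 3 libraries.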
